A study of Mus musculus with 18 samples.

Results

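Alveolar progenitors and basal cells of the mouse mammary gland were compared gene by gene. The members are the 6 libraries titled AP (alveolar progenitors, also known as luminal progenitors) and the 6 titled basal, 12 of the 18 RNA sequencing libraries of the study. All libraries of both populations came from nulliparous MMTV-Cre mice that were 12 weeks old and untreated. In MMTV-Cre mice a mouse mammary tumour virus promoter drives the Cre recombinase in mammary epithelium, and the labels name no other allele, so both populations carry the same transgene. Complementary DNA was amplified from 2 ng of RNA with a low-input kit, and libraries were made from 150 pg of it by a method that does not mark the strand, so reads of a gene and an antisense partner cannot be told apart. Cells of digested glands were stained for the integrins CD49f and CD61, for EpCAM, and for endothelial (CD31), leukocyte (CD45) and erythroid (Ter119) antigens. Basal cells were sorted as CD49f-hi and CD61+, and AP cells as CD49f-lo and CD61+. The other 6 libraries, of hormone-sensing luminal cells, entered the model fit and are not described. The labels give 6 animals and 6 sample numbers and do not say that a number marks an animal. Libraries of the same number deviated together, clearly for sample 1 and weakly for sample 6, and the comparison was made within sample numbers.

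The mammary epithelium has an outer basal layer on a basement membrane and an inner luminal layer around the lumen. Basal cells are largely myoepithelial: they contract in response to oxytocin, hold the epithelium to the membrane and secrete much of it. Alveolar progenitors are luminal cells that give rise to the milk-secreting alveoli, and milk secretion rests on an apical membrane sealed by tight junctions, on lipid droplet release and on ion and nutrient transport.

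Gene counts summed to between 37391691 and 62505465 per AP library and between 29899462 and 91095830 per basal library. Levels are CPM (counts per 1000000, with library sizes scaled by TMM factors), fold changes are log2 of AP over basal ± standard error (SE), and a gene is called higher or lower where edgeR's quasi-likelihood test gave a Benjamini-Hochberg adjusted p under 0.05. Values with ± and no unit in the text are such log2 fold changes with their SE. Overlap between libraries is stated for some genes only, so a gene given without it need not separate the populations. Where 3 values are given for a population, they are the lowest, the median and the highest of its 6 libraries. Both libraries of sample 1 stood apart from the other 10 on the second principal component, which held 11.3% of the variance against 63.3% on the first, and counts of list members that move by over 1.5 times without sample 1 are given beside them. Of 9072 genes called with all samples, 8684 were also called without sample 1. The populations' labels were checked against their markers. Krt14, a basal keratin, read 7.78, 23.4 and 31.8 CPM in AP and 3902, 7225 and 9748 CPM in basal libraries. Acta2, smooth muscle actin, read 23.8, 65.4 and 109 CPM in AP and 12900.1, 18602 and 23994 CPM in basal libraries. Kit, a receptor of luminal progenitors, read 882, 1673 and 1863 CPM in AP and 21.9, 24.9 and 75.6 CPM in basal libraries, and Elf5, an ETS factor of the alveolar lineage, 149, 194 and 224 and 2.47, 3.69 and 6.74 CPM. None of these 4 markers overlapped between the populations. Hormone-sensing markers were also higher in AP, with 6 of 6 called and summed levels of 296 to 2017 CPM in AP and 116 to 413 CPM in basal libraries; their part in the results was not tested. Of the sort's own genes, Itga6 (CD49f) was lower in AP at a log2 fold change of -1.62 ± 0.15, though 11.4% of its span is shared with another gene. Itgb3 (CD61), on which both gates are positive, read 16.7, 41.5 and 75.3 CPM in AP and 79.6, 95.4 and 119 CPM in basal libraries, at -1.17 ± 0.41 and an edgeR adjusted p of 0.0251, a call that was lost without sample 2 (0.0768) and without sample 6 (0.0995). Epcam, the other surface antigen of the stain, was higher in AP at 2.69 ± 0.12.

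Genes called were about as often higher as lower in AP. Of 16471 genes tested, 4400 (26.7%) were called higher and 4672 (28.4%) lower in AP, 55.1% in all. The number called was 9583 without sample 1, 7961 without sample 5, and 7356 without the replicate block. The identifiers in the deposited files run in separate series for samples 1 to 3 and 4 to 6, and edgeR called 5460 genes within the former and 7841 within the latter. Of the genes called, 44.8% differed by an estimated factor under 2. The median log2 fold change of all genes was -0.01, while the median was 0.95 among genes called higher and -1.40 among genes called lower. A fold of at least 2 was estimated for 2116 genes higher (12.8%) and 2891 genes lower (17.6%), and for 2426 and 2602 with library sizes taken as total counts. Tested against a 2-fold change itself, with edgeR's glmTreat, 1366 (8.29%) were higher and 1988 (12.1%) lower, and 1556 and 1774 with total counts. The libraries of AP lay wholly above those of basal cells for 1891 genes (11.5%) and wholly below for 2367 (14.4%), 25.9% together. With total counts the median of all genes moved to 0.13 and the share of calls that were higher from 48.5 to 58.5%, so the near balance of higher and lower calls depends on the scaling.

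The large differences were unequal in the 2 directions. At 8-fold or more there were 525 genes higher and 1060 lower, at 32-fold or more 89 and 395, and at 128-fold or more 10 and 130. With total counts these were 586 and 1007, 112 and 364, and 10 and 118. The 1060 genes lower by 8-fold or more took 17.4 ± 1.69% (SD, n = 6) of the counts of basal libraries and 0.73 ± 0.07% in AP. The 525 genes higher by that factor took 6.67 ± 0.9% in AP and 0.38 ± 0.09% in basal libraries. The same folds can be read as the level left in the lower population. Among the 15 genes with the largest falls, chosen by that fold at 50 CPM or more in basal cells, the AP library held a median of 0.0664 to 0.545% of the basal level of the same sample number. Among the 15 with the largest rises, chosen likewise, the basal library held 1.02 to 3.58% of the AP level. In bulk libraries such a remainder, like every difference here, cannot be told apart between fewer cells of a type and less RNA per cell.

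**Figure D1:**
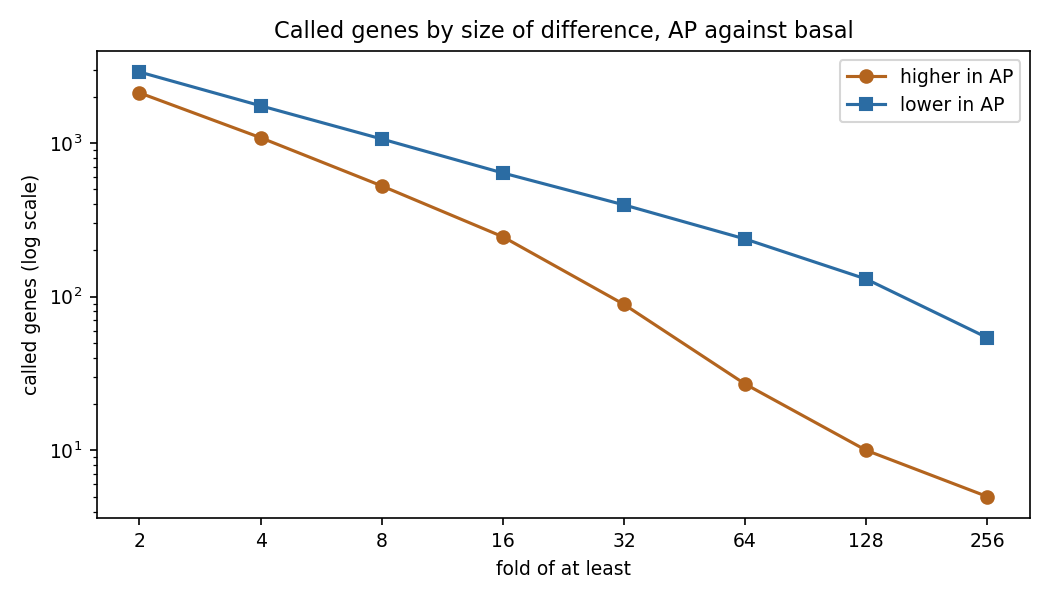
Number of genes called higher (brown circles) and lower (blue squares) in AP than in basal cells (vertical axis, log scale) at or above each fold (horizontal axis). The lines are close at 2-fold, with 2116 genes higher and 2891 lower, and far apart at 128-fold, with 10 and 130.

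By class of gene, 3952 of 13941 protein-coding genes were higher and 4253 lower. Of 533 intergenic long non-coding RNAs 162 were higher and 103 lower. The shares called were 58.9 and 49.7%, against 55.1% of all genes. Neat1, a non-coding RNA that scaffolds nuclear paraspeckles, was higher in AP at 2.16 ± 0.33 (edgeR adjusted p = 8.81e-05), with library values that overlapped.

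The largest rises in AP included carriers of nucleosides, glucose and choline. Hhipl2, a relative of the hedgehog-binding protein Hhip (chr1:183418215-183436808 in GRCm38), read 148, 224 and 310.4 CPM in AP and 1.74, 2.68 and 3.29 CPM in basal libraries, 90.5-fold higher (log2 6.50 ± 0.41, edgeR adjusted p = 2.53e-08). Each AP library was above each basal library by a wide margin. Slc28a3, a concentrative nucleoside transporter, read 103, 264 and 665 CPM against 1.07, 3.27 and 9.28 CPM (log2 6.23 ± 0.63). Slc5a1, a sodium-glucose cotransporter, Slc5a7, a choline transporter, and Slco1a5, an organic anion transporter, were higher at 5.71 ± 0.48, 5.80 ± 0.54 and 5.58 ± 0.55. Cck, which encodes the peptide hormone cholecystokinin, was higher at 5.58 ± 0.44, and Rasgef1c, an exchange factor for Ras-type GTPases, at 5.50 ± 0.51. Abundant genes that were higher included secreted proteins. Fcgbp, a mucin-like secreted protein, read 1862, 3936 and 8634 CPM in AP and 37.2, 95.8 and 373 CPM in basal libraries. Clu, the extracellular chaperone clusterin, read 1919.7, 2927 and 4847 CPM against 106, 134 and 193 CPM. Mfge8, the milk fat globule protein, read 7010.2, 10629 and 14229.9 CPM against 1683, 1953 and 2324 CPM (log2 2.42 ± 0.32), a smaller fold than that of Hhipl2. All 6 sample numbers had the AP library above the basal library for these 3 genes.

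The largest falls included muscle, chemokine and Wnt genes. Asb2, a substrate adaptor of a ubiquitin ligase that acts on filamins in muscle and blood cells, read 0, 0.0675 and 0.105 CPM in AP and 34.5, 73.3 and 81.1 CPM in basal libraries (log2 -10.20 ± 0.72), with 32% of its span shared with another gene. Cxcl14, a chemokine, read 5.13, 9.21 and 21.7 CPM in AP and 1274, 4060.2 and 5651 CPM in basal libraries, a difference of 359-fold (edgeR adjusted p = 1.04e-08). Apoe, the lipid carrier apolipoprotein E, read 198, 527 and 723 CPM against 9849, 12541 and 15500.0 CPM. The 3 genes had no overlap between populations, and AP libraries kept 198 CPM of Apoe or more while Asb2 was near 0. Mill1, a relative of MHC class I, Tmem200a, a transmembrane protein, Wnt10a, a Wnt ligand, and Tenm2, a teneurin adhesion protein, were lower at -9.64 ± 0.46, -8.95 ± 0.59, -8.73 ± 0.52 and -8.58 ± 0.42. Mt1, a metallothionein that binds zinc and copper, was lower at -3.97 ± 0.26.

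**Figure D2:**
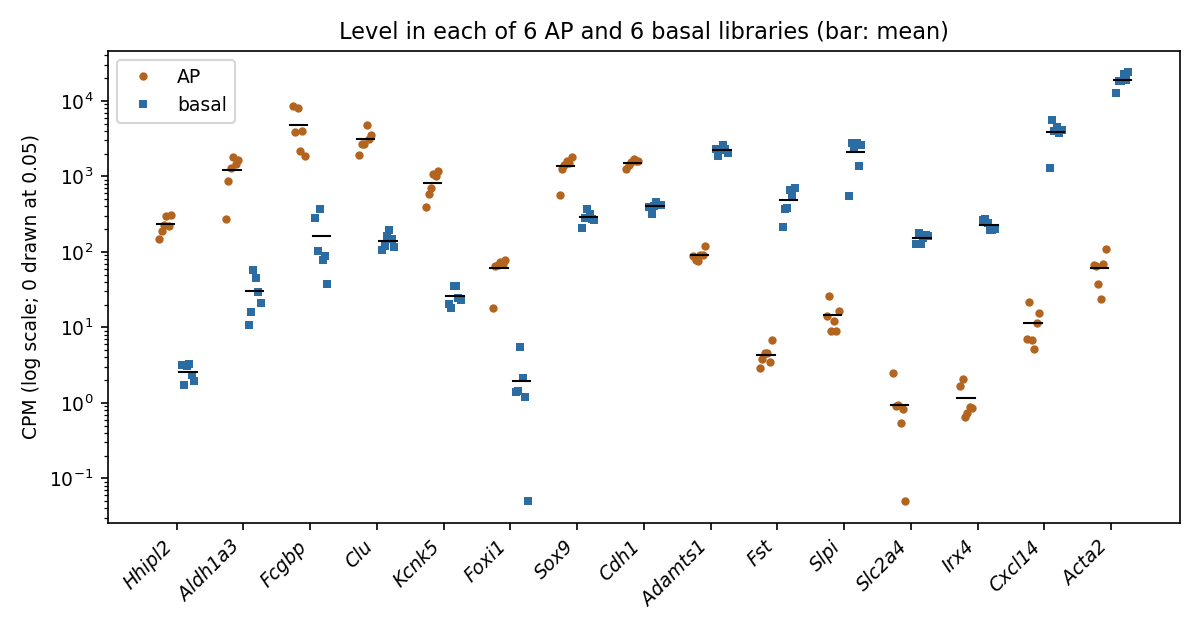
Level of 15 genes in each of the 6 AP (circles) and 6 basal (squares) libraries, in CPM on a log axis, with the mean as a bar and values of 0 drawn at 0.05. Circles and squares do not overlap for any of the 15, and the gap is narrow for Sox9 and Cdh1 and wide for Acta2 and Cxcl14.

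The oxytocin receptor, a calcium channel gene and several filament genes were lower in AP, while other receptor and calcium genes were higher. Of 31 tested genes for oxytocin, adrenergic and calcium control of contraction 16 were lower and 10 higher. In all 83.9% were called, against 55.1% of all genes, of which 28.4% were lower and 26.7% higher. Oxtr, the oxytocin receptor (chr6:112473683-112489943), read 40.6, 54.7 and 164 CPM in AP and 1279.8, 1679 and 2257 CPM in basal libraries, 29.4-fold lower (log2 -4.88 ± 0.40, edgeR adjusted p = 2.61e-07). Cacna1c, the pore of the L-type calcium channel, read 0.497, 0.725 and 3.07 CPM against 13.3, 36.2 and 90.2 CPM. Both genes separated the populations in every library, and AP libraries still held 40.6 CPM of Oxtr or more. Ppp1r14a, an inhibitor of myosin phosphatase, was lower at -5.47 ± 0.40, and the purinergic receptor P2ry1 at -6.05 ± 0.42, with 16% of its span shared. Store-operated calcium entry was split: Stim1, its sensor in the endoplasmic reticulum, was lower at -1.89 ± 0.08, while Orai1, its channel in the plasma membrane, was higher at 2.43 ± 0.19. The purinergic receptors were split too, since P2ry2 was higher at 2.42 ± 0.17. Agtr1a, an angiotensin receptor with 14.7% of its span shared, was higher at 2.68 ± 0.23.

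Serum response factor (SRF) and its myocardin-family coactivators switch on smooth muscle genes through a sequence known as the CArG box. Of 19 tested genes of SRF, its cofactors and its muscle targets 16 were lower and 1 higher in AP, with a median log2 fold change of -1.78. Among filament genes Actg2, enteric smooth muscle actin, read 0.363, 2.55 and 5.52 CPM in AP and 452, 763 and 1098 CPM in basal libraries (log2 -8.49 ± 0.50). Myl9, the regulatory light chain of smooth muscle myosin, read 5.64, 9.44 and 16.3 CPM against 1222, 2141 and 2450.4 CPM (log2 -7.71 ± 0.37). Myh11, its heavy chain, read 4.03, 6.5 and 14.3 CPM against 822, 2501 and 3768 CPM (log2 -8.24 ± 0.68). No AP library reached the lowest basal library in any of these 3 genes, and all 6 sample numbers agreed in direction. Cnn1, calponin, was lower at -8.90 ± 0.54, and Tpm2, a tropomyosin, at -8.17 ± 0.42. Other cytoskeletal genes differed by smaller factors: Smtn (smoothelin, 29% of its span shared) was lower at -3.71 ± 0.12, Flna (filamin A) at -3.23 ± 0.21 and the actin-associated LIM proteins Pdlim7 and Csrp1 at -3.54 ± 0.09 and -2.27 ± 0.13. The member that was higher was Ldb3, a Z-disc protein of striated muscle, at 24.6 ± 5.26 CPM (mean ± SD) in AP and 2.21 ± 0.816 CPM in basal libraries (log2 3.54 ± 0.44). Pericytes, the mural cells of small vessels, share much of this programme. Of 7 pericyte markers 6 were lower in AP and Notch3, with 45.7% of its span shared, was higher. Their summed level was 96.6 to 208 CPM in AP and 68.6 to 111 CPM in basal libraries. Most of the AP sum was Notch3, at 74.6, 107 and 183 CPM in AP and 4.31, 11.6 and 15 CPM in basal libraries. The part of pericytes in the result was not tested.

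The letters of the CArG box were sought in the 250 bases before each RefSeq start in GRCm38.p6, allowing 1 mismatch; the pattern is its own reverse complement, so 1 search covers both strands. A match was found for 7 of the 14 contractile genes with a promoter entry, namely Acta2, Flna, Ldb3, Lmod1, Myl9, Tpm1 and Vcl, and for 18.6% of all 32851 promoters. A gene was counted if any of its promoters held a match, so its share and that of promoters are not alike in unit. Matches with no mismatch occurred in 1.47% of promoters, and 2 or more with up to 1 mismatch in 2.96%. Acta2 and Myl9 each held 2 and are shown as examples of genes lower in AP, with the matches in capitals and each sequence on its gene's strand. Acta2 has its matches 84 and 34 bases before the start, and they are shown with their flanks at chr19:34255438-34255467 and chr19:34255388-34255417 (minus strand), since the bases around them lie in an annotated exon. Myl9 has its matches 161 bases (no mismatch) and 99 bases before the start, and chr2:156775284-156775419 (plus strand) is shown.
Acta2 distal: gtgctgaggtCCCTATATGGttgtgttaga
Acta2 proximal: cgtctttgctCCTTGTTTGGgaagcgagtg
Myl9: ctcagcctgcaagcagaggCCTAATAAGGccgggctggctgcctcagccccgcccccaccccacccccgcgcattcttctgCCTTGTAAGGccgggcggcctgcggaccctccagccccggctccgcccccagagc
A match is a description of the letters and not of a bound site. The higher gene Ldb3 also held one.

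Extracellular matrix genes were called lower in AP more often than higher. Of 37 collagen genes tested 24 were lower and 6 higher, of 11 laminins 9 were lower and the other 2 were not called, and of 42 matricellular and elastic matrix genes 25 were lower and 5 higher (3 without sample 3, 5 or 6). Fmod, fibromodulin, which binds collagen fibrils, read 0.147, 0.808 and 2.5 CPM in AP and 153, 458 and 521 CPM in basal libraries (458-fold lower, log2 -8.84 ± 0.51). Col17a1, the transmembrane collagen of hemidesmosomes, read 0.504, 2.07 and 7.63 CPM against 457, 813 and 1104 CPM (log2 -8.41 ± 0.76). No AP library exceeded 7.63 CPM of either gene, and no basal library had under 153 CPM. Col7a1, of anchoring fibrils, was lower at -7.16 ± 0.35, and the laminin chains Lama1 and Lama3 at -6.79 ± 0.70 and -4.69 ± 0.36. Among matrix modifiers and organisers Bgn (biglycan) was lower at -5.84 ± 0.31, Spock2 (a testican) at -6.56 ± 0.44, Loxl3 (a lysyl oxidase) at -5.20 ± 0.22, Sparc (osteonectin) at -5.18 ± 0.31 and Thbs1 (thrombospondin 1) at -3.04 ± 0.45.

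The matrix genes that were higher in AP differed from these by smaller factors. Col8a1, a short-chain collagen, was higher at 2.11 ± 0.25, Lum (lumican) at 1.28 ± 0.23, the matricellular proteins Thbs2 and Ccn1 at 1.20 ± 0.30 and 0.86 ± 0.24, and the collagens Col6a3 at 1.39 ± 0.45 and Col1a1 at 1.23 ± 0.41. Libraries overlapped for Lum, Thbs2, Ccn1, Col6a3 and Col1a1. The edgeR adjusted p rose to 0.0505 for Ccn1 without sample 6, to 0.0846 for Col1a1 without sample 3, and for Col6a3 to 0.0585, 0.0512 and 0.0513 without sample 2, 3 or 4. Without sample 3 the collagens called higher went from 6 to 2. Several of these are fibroblast genes. Of 8 fibroblast markers 6 were higher in AP (2 without sample 2, 1 without sample 3) and Dcn was lower at -1.52 ± 0.31, with summed levels of 335 to 994 CPM in AP and 489 to 768 CPM in basal libraries; their part in the result was not tested.

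Proteases were found on both sides. Of 37 secreted proteases tested 19 were lower and 13 higher in AP, and of 50 genes of the Mmp, Adam and Adamts families 25 were lower and 7 higher. Adamts1, which cleaves proteoglycans, read 75.3, 88.8 and 120.4 CPM in AP and 1854, 2258 and 2637 CPM in basal libraries (24.6-fold lower, log2 -4.62 ± 0.27). Adamts18 was lower at -7.42 ± 0.50, the serine protease Prss23 at -4.54 ± 0.17, the carboxypeptidase Cpm at -4.66 ± 0.38 and Bmp1, which trims procollagens, at -2.02 ± 0.13. Some membrane-bound proteases were higher. Mmp15, a membrane-type metalloproteinase, was higher at 3.84 ± 0.19, and the transmembrane serine proteases Tmprss2 and St14 (matriptase) at 3.34 ± 0.19 and 1.90 ± 0.12. Of 21 kallikreins and transmembrane serine proteases 8 were higher and 3 lower.

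Protease inhibitors were mostly lower in AP, with 15 of 22 lower and 3 higher. The 3 were the matriptase inhibitors Spint1 (2.61 ± 0.14) and Spint2 (0.74 ± 0.08) and the cysteine protease inhibitor Cst3 (2.30 ± 0.41). St14 and both of its inhibitors were thus higher together. Of 17 serpins tested 13 were lower and the other 4 were not called. Serpinb6b was lower at -5.73 ± 0.43, Serpinb9, an inhibitor of granzyme B, at -2.28 ± 0.15, and Serpinh1, the collagen chaperone HSP47, at -2.43 ± 0.23. Slpi, a secreted inhibitor of leukocyte proteases with antimicrobial action, read 8.87, 13.2 and 26.1 CPM in AP and 555, 2542 and 2764 CPM in basal libraries (158-fold lower, log2 -7.30 ± 0.61).

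Adhesion molecules differed member by member. Of 24 integrin genes tested 14 were lower and 1, Itgb6, was higher at 2.28 ± 0.23; 2 were higher without sample 4, without the block, and with DESeq2 or limma-voom. Of 17 cadherins 11 were lower and 2 higher, 1 of them without the block or without sample 2, 4 or 5. Cdh1, epithelial cadherin, read 1252, 1567 and 1706 CPM in AP and 316, 416 and 453 CPM in basal libraries (log2 1.91 ± 0.12). Cdh3, placental cadherin and the neighbour of Cdh1 on chromosome 8, read 0.631, 2.02 and 2.77 CPM against 314, 513 and 569 CPM (log2 -8.30 ± 0.55). Basal libraries thus held 316 CPM of Cdh1 or more, while no AP library exceeded 2.77 CPM of Cdh3. Itga9, an integrin of tenascin and other matrix ligands, was lower at -3.46 ± 0.36, and the desmosomal Dsc3 at -5.18 ± 1.27. The protocadherins Pcdh1 and Pcdh7 went opposite ways at 2.49 ± 0.14 and -5.50 ± 0.55. Perp, a desmosome protein and p53 target, was lower at -2.81 ± 0.15. Of 12 claudins, which seal tight junctions, 9 were higher and 2 lower in AP. Cldn3, Cldn4 and Cldn7 were higher by similar factors, at 4.44 ± 0.16, 4.48 ± 0.19 and 4.53 ± 0.15, and Cldn2, which forms a cation pore, at 4.88 ± 0.72.

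Genes known from the wiring of neurons were more often lower in AP. Guidance cues and receptors steer axons and also cell sorting in epithelia. Of 43 tested 27 were lower and 6 higher in AP. Of 28 neurotrophin, GDNF and synaptic-type genes 18 were lower and 4 higher, with a median log2 fold change of -2.54. Gfra1, a GDNF receptor subunit, read 0.0904, 0.795 and 1.91 CPM in AP and 36.5, 91.2 and 170.5 CPM in basal libraries (log2 -6.96 ± 0.57). Its relative Gfra2 was lower at -6.17 ± 0.51, the neurotrophin receptor Ntrk3 at -6.95 ± 0.26, the neurotrophin Ntf5 at -2.62 ± 0.09 and the synaptic adhesion protein Nlgn1 at -4.18 ± 0.37. Among guidance genes the Slit receptors Robo1 and Robo2 were lower at -3.08 ± 0.18 and -4.91 ± 0.40, the semaphorins Sema3c and Sema6d at -3.64 ± 0.57 and -5.03 ± 0.62, and the ephrin Efnb1 at -1.35 ± 0.11. The exceptions included a secreted cue. Ntn1, netrin 1, read 156, 231 and 376 CPM in AP and 5.12, 11.1 and 20.4 CPM in basal libraries (21.9-fold higher, log2 4.45 ± 0.40, edgeR adjusted p = 6.88e-07). Sema4d was higher at 2.70 ± 0.21, the Eph receptor Ephb3 at 1.80 ± 0.28 and the adhesion protein Cadm4 at 2.22 ± 0.23. Markers of Schwann cells, the glia of peripheral nerves, numbered 2 higher (1 without sample 6) and 3 lower of 6, with summed levels of 208 to 524 CPM in AP and 162 to 245 CPM in basal libraries; their part in the result was not tested.

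Of 40 tested ligands, receptors, antagonists and effectors of the TGF-beta and BMP pathways 24 were lower and 6 higher. Fst, follistatin, which traps activins, read 2.92, 4.18 and 6.81 CPM in AP and 215, 479 and 709 CPM in basal libraries (109.7-fold lower, log2 -6.78 ± 0.34). Inhbb, which encodes an activin subunit that follistatin binds, was higher at 3.96 ± 0.14. An activin subunit and its trap thus lay on opposite sides. Ltbp1, which holds latent TGF-beta in the matrix, read 232, 380.5 and 556 CPM in AP and 16.6, 21.6 and 45.3 CPM in basal libraries (log2 3.85 ± 0.29). The BMP effector Smad1 and the BMP target Id3 were lower at -1.86 ± 0.10 and -2.89 ± 0.16.

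In the FGF and Sprouty axis 15 of 27 genes were lower and 3 higher. The ligand Fgf1 was lower at -4.73 ± 0.37, the decoy receptor Fgfrl1 at -2.06 ± 0.16, the inhibitor Spred1 at -2.09 ± 0.08 and the FGF-induced factor Etv4 at -3.69 ± 0.22, whereas the ERK phosphatase Dusp4 was higher at 2.51 ± 0.13. Of 20 Wnt ligands and frizzled receptors 10 were lower and 5 higher. The ligands Wnt7b, Wnt4 and Wnt5b were higher at 3.51 ± 0.10, 2.36 ± 0.20 and 2.03 ± 0.37, and Wnt11 was lower at -5.43 ± 0.26, as was Wnt10a above. Of 57 orphan and adhesion G protein-coupled receptors 29 were lower and 9 higher, among them the orphan receptors Gpr153 (-4.99 ± 0.29), Gpr27 (-5.39 ± 0.47) and Gpr161 (-4.92 ± 0.69) on the lower and the retinoic acid-induced Gprc5a (3.18 ± 0.19) on the higher side. RGS proteins, which end G protein signals, numbered 9 lower and 2 higher of 16, with Rgs4 at -3.45 ± 0.59 and Rgs20 at 4.69 ± 0.51.

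Among 31 chemokines and cytokines 15 were lower and 8 higher in AP. The stromal-type chemokines Cxcl12 and Ccl7 were lower at -5.13 ± 0.26 and -3.91 ± 0.37, and the macrophage growth factor Csf1 at -1.38 ± 0.14. Lif, leukaemia inhibitory factor, read 76, 162 and 296 CPM in AP and 6.57, 8.62 and 17.7 CPM in basal libraries (17.3-fold higher, log2 4.11 ± 0.30). The cytokine Tnf was higher at 2.88 ± 0.36 and the chemokine Cxcl15 at 2.58 ± 0.23. Of 18 hypoxia and angiogenic genes 10 were lower and 3 higher: the placental growth factor Pgf (-3.25 ± 0.40), the hypoxia factor Epas1 (-2.65 ± 0.22) and Angptl4 (-3.55 ± 0.17) were lower, and Angpt1, a ligand that steadies vessels, and Egln3, which marks hypoxia factors for loss, were higher at 4.85 ± 0.46 and 2.95 ± 0.22. Endothelial markers were lower in AP, with 8 of 8 called and summed levels of 56.9 to 128 CPM in AP and 125 to 392 CPM in basal libraries; their part in these results was not tested.

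**Figure D3:**
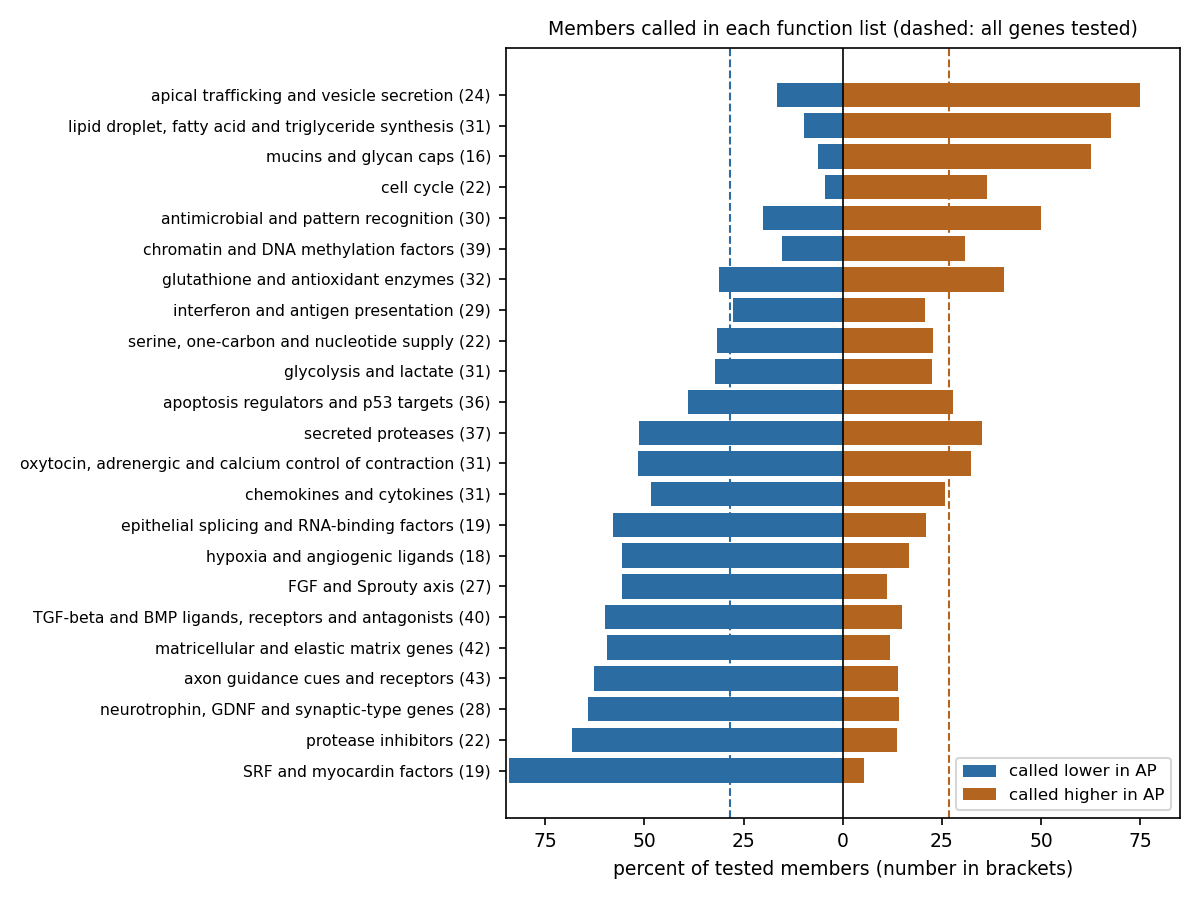
Share of the tested members of each function list that was called lower (blue, to the left) and higher (brown, to the right) in AP, in percent, with the number tested in brackets and the shares over all genes, 28.4 and 26.7%, as dashed lines. SRF factors, protease inhibitors and neuronal and matrix lists lean left, and apical trafficking, mucins and lipid synthesis lean right.

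Apical secretory machinery was more often higher in AP. Of 24 genes of apical trafficking and vesicle secretion 18 were higher and 4 lower, with a median log2 fold change of 1.47. Mal2, which sorts proteins to the apical membrane, was higher at 4.37 ± 0.14 and the tight junction scaffold Cgn (cingulin) at 4.08 ± 0.25. The small GTPases Rab25, Rab17 and Rab3d, of apical recycling and regulated secretion, were higher at 3.03 ± 0.15, 2.91 ± 0.16 and 1.72 ± 0.08. Rab27a, which docks secretory vesicles, was lower at -2.84 ± 0.22. The class V myosins, which carry vesicles on actin, were split: Myo5c and Myo5b were higher at 4.33 ± 0.53 and 1.54 ± 0.18, and Myo5a was lower at -2.47 ± 0.26. Nonmuscle myosin II was split as well, with Myh14 higher at 2.56 ± 0.16 and Myh10 lower at -2.89 ± 0.28.

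Mucins and the sugars on them form the glycan coat of luminal surfaces. Of 16 tested 10 were higher and 1 lower (3 lower without sample 1). Muc1, a membrane mucin, read 106, 375 and 456 CPM in AP and 5, 8.76 and 12.8 CPM in basal libraries (37.7-fold higher, log2 5.24 ± 0.38). Muc20, with 24.8% of its span shared, was higher at 5.66 ± 0.54. Galnt3, which starts O-glycans, was higher at 2.26 ± 0.12, B3gnt3, which extends them, at 2.41 ± 0.29, and B4galt1, the galactosyltransferase that lactose synthase is built on, at 1.23 ± 0.15. The sialyltransferase St6gal1 was the lower member at -2.77 ± 0.41.

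Lipid synthesis and droplet genes were higher in 21 of 31 cases and lower in 3. Btn1a1 (butyrophilin) and Plin2 (perilipin 2), of the milk fat globule and the lipid droplet, were higher at 5.48 ± 0.50 and 2.36 ± 0.25, with AP means of 566 ± 299.7 and 515 ± 263 CPM (mean ± SD). Elovl7, which elongates fatty acids, and Acly, which supplies their acetyl units, were higher at 1.94 ± 0.18 and 0.89 ± 0.08. The enzymes Elovl5, Scd2 and Acsl4 were lower at -0.81 ± 0.10, -1.19 ± 0.15 and -1.04 ± 0.23.

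Milk protein RNA was present at low and uneven levels in these nulliparous glands. Lalba, alpha-lactalbumin, read 3.2, 107 and 179 CPM in AP and 0.403, 1.08 and 1.76 CPM in basal libraries (log2 6.24 ± 0.56, edgeR adjusted p = 7.08e-07). The lowest AP library was above the highest basal library, but AP libraries were spread widely. The caseins Csn2 and Csn1s1 and the light chain Myl9 were named after their values were seen. Csn2 read 0, 1.94 and 5.81 CPM in AP and 0, 0.0492 and 0.672 CPM in basal libraries, at 4.55 ± 0.84; it was higher in AP in 5 of 6 sample numbers and lost its call without the replicate block (edgeR adjusted p = 0.0546), and the fold change was 5.27 without sample 6. Csn1s1 read 0.117, 3.3 and 16.9 CPM against 0, 0.0209 and 0.291 CPM, at 6.60 ± 1.02, and 7.41 without sample 2. Populations overlapped for both caseins. The letters TTCNNNGAA are the core that STAT5 and other STAT factors recognise. In the 250 bases before a start they occurred for 3 of 8 milk genes with an entry (Csn1s1, Csn2 and Glycam1), counting any promoter of a gene. Of all promoters they occurred in 7.02%, a share of promoters and not of genes. Their place in both casein promoters is shown in capitals, 93 bases before the RefSeq start in Csn2 (chr5:87699500-87699529, minus strand) and 100 before it in Csn1s1 (chr5:87666028-87666207, plus strand). The pattern reads the same on both strands. Csn2 is given in 30 bases because its surroundings lie in an annotated exon.
Csn2: atcacgtagacTTCTTGGAAttgaagggac
Csn1s1: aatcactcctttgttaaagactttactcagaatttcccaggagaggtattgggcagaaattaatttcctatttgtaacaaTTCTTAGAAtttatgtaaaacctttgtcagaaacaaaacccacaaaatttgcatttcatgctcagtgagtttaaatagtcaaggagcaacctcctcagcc
The RNA of Stat5a and Stat5b was higher in AP, at 0.81 ± 0.10 and 1.17 ± 0.08. The matches describe letters and not bound sites, and a link between these factors and the caseins was not tested.

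Defence genes leaned to AP, with 15 of 30 antimicrobial and pattern recognition genes higher and 6 lower. Cd14, the lipopolysaccharide co-receptor, read 852, 1592 and 2097 CPM in AP and 48.3, 61.5 and 72.7 CPM in basal libraries (25.3-fold higher, log2 4.66 ± 0.33). Wfdc18 and Wfdc3, of the whey acidic protein family, were higher at 5.38 ± 0.39 and 2.86 ± 0.27, haptoglobin (Hp) at 3.41 ± 0.18 and the RNA sensor Tlr3 at 1.79 ± 0.14. Lcn2 and C3, antimicrobial and complement proteins, were not called at 0.72 ± 0.37 and 0.80 ± 0.35 (edgeR adjusted p = 0.117 and 0.0652). Without sample 1 edgeR called both higher (0.035 and 0.0162). It also did so with only the 12 AP and basal libraries (4.57e-05 and 0.00408). C3 was called higher by DESeq2 (adjusted p = 0.0366) and limma-voom (adjusted p = 0.0261) as well. The myeloid lysozyme Lyz2 was lower at -2.70 ± 0.37, with overlapping libraries. Of 29 interferon and antigen presentation genes 6 were higher and 8 lower, shares no larger than the 26.7 and 28.4% of all genes. MHC class II genes were lower (H2-Aa at -3.03 ± 0.50 and H2-Ab1 at -2.40 ± 0.47, with their chaperone Cd74 at -2.99 ± 0.51), whereas the class I genes H2-K1 and H2-D1 read 0.22 ± 0.18 and 0.10 ± 0.16 and were not called. With only the 12 AP and basal libraries H2-K1 was called higher, at 0.27 (edgeR adjusted p = 0.0245). Leukocyte markers were mostly lower too, and Cd74 is itself one of them. Of 9 such markers 7 were lower in AP (2 without the replicate block). Summed levels were 10.6 to 222 CPM in AP and 178 to 957 CPM in basal libraries. Cd74 gave 61.8 of a mean sum of 90 CPM in AP and 400 of 496 CPM in basal libraries. The part of leukocytes in the result was not tested. Erythroid markers summed to 13.4 to 69.7 CPM in AP and 65.2 to 264 CPM in basal libraries, and adipocyte markers to 25.4 to 119 and 93.4 to 300 CPM. Nearly all of the adipocyte sum was 1 gene, Fabp4, at 25.4 to 118 CPM in AP and 87.8 to 291 CPM in basal libraries. Only 2 of the 5 adipocyte markers passed the filter, and 1 was called lower.

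Solute carriers, 281 of them tested, lay on both sides with 98 higher and 89 lower, each share a little above that of all genes. Slc12a2, the sodium-potassium-chloride cotransporter of secretory epithelia, was higher at 2.38 ± 0.25, though its libraries overlapped. Slc2a4, the insulin-responsive glucose transporter GLUT4, read 0, 0.871 and 2.47 CPM in AP and 128, 157 and 179 CPM in basal libraries (178-fold lower, log2 -7.48 ± 0.51). With Slc5a1 higher in AP, the 2 glucose carriers were on opposite sides, and neither overlapped between the populations. The sodium-calcium exchanger Slc8a1 was lower at -7.22 ± 0.69. Of the neutral amino acid exchangers Slc1a4 was higher at 3.40 ± 0.45 and Slc1a5 lower at -1.90 ± 0.13. Efflux pumps were split between Abcc3 (3.63 ± 0.14) and Abcb1b (-5.38 ± 0.42).

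Ion channels differed by kind. Of 36 sodium, calcium and TRP channel genes 21 were lower and 5 higher, and of 55 potassium channel genes 25 were lower and 16 higher. Scn7a, a sodium channel relative that senses sodium, read 1.75, 3.78 and 6.12 CPM in AP and 110.4, 660.2 and 789 CPM in basal libraries (log2 -7.14 ± 0.33). Cacna2d1, an auxiliary calcium channel subunit, was lower at -6.74 ± 0.42, while Trpm6, a magnesium channel, was higher at 1.88 ± 0.29. Kcnk5, a pH-sensitive background potassium channel, read 395, 863 and 1181 CPM in AP and 17.8, 23.8 and 35.8 CPM in basal libraries (31.1-fold higher). Kcnq5, a voltage-gated channel of smooth muscle and neurons, read 0.284, 0.785 and 1.46 CPM against 51.2, 137 and 229 CPM (161-fold lower). Neither channel overlapped between the populations, and their directions were opposite. The calcium-activated Kcnn4 and the voltage-gated Kcnd2 were higher at 5.18 ± 0.38 and 4.37 ± 0.58 and the channel-interacting Kcnip3 was lower at -4.78 ± 0.41. Of 19 chloride channel and anoctamin genes 8 were higher and 5 lower, with Ano1, a calcium-activated chloride channel of secretory cells, at 1.91 ± 0.15, and Clcn3 at 2.46 ± 0.09. Piezo2, a mechanosensitive channel, read 21, 44.6 and 118 CPM in AP and 3.54, 7.43 and 15.5 CPM in basal libraries (log2 2.70 ± 0.26).

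Among water channels the aquaporins Aqp5 and Aqp3 were higher at 3.07 ± 0.20 and 2.15 ± 0.34, the latter with overlapping libraries. The beta subunits of the sodium pump lay on opposite sides, with Atp1b1 higher at 3.80 ± 0.20 and Atp1b3 lower at -1.27 ± 0.21.

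**Figure D4:**
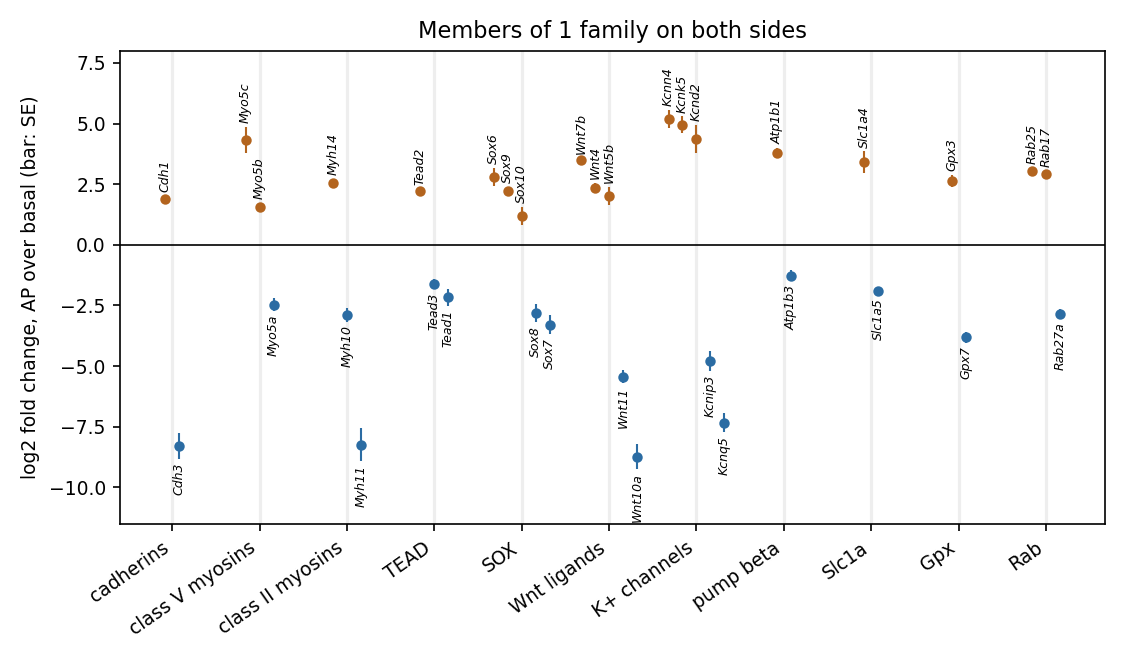
Log2 fold change of AP over basal cells, with its SE as a bar, for called members of 11 gene families that lie on both sides of 0. Cdh1 and Cdh3, Myo5c and Myo5a, Tead2 and Tead1, Atp1b1 and Atp1b3 and the other groups have members above and below the line.

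Metabolic lists lay near the shares of all genes, and isoforms within them differed. Of 31 glycolysis genes 7 were higher and 10 lower. Aldoc, an aldolase isoform, read 332, 617 and 1062 CPM in AP and 21.7, 42.2 and 57.5 CPM in basal libraries (log2 3.94 ± 0.19), while the phosphofructokinases Pfkp and Pfkm were lower at -1.26 ± 0.13 and -0.66 ± 0.08 and Ldha was not called at 0.12 ± 0.15. The pyruvate dehydrogenase kinases were split, with Pdk1 higher at 1.55 ± 0.15 and Pdk4 lower at -1.30 ± 0.25. Of 22 serine, one-carbon and nucleotide genes 5 were higher and 7 lower, with Shmt1, which feeds the folate cycle, at 1.93 ± 0.19 and Cth, which makes cysteine, at -3.95 ± 0.69.

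Of 32 glutathione and antioxidant genes 13 were higher and 10 lower. Srxn1, which repairs peroxiredoxins, read 51, 532 and 1113 CPM in AP and 20.9, 42.7 and 103 CPM in basal libraries (log2 3.33 ± 0.37), with 1 AP library within the basal range. Gpx3, the secreted glutathione peroxidase, was higher at 2.63 ± 0.25 with overlapping libraries, and Gpx7, of the endoplasmic reticulum, lower at -3.81 ± 0.22. Gsr, which regenerates glutathione, and the mitochondrial Prdx3 were higher at 1.68 ± 0.16 and 1.11 ± 0.14. Aldehyde dehydrogenases numbered 5 higher and 5 lower of 18, close to the 26.7 and 28.4% of all genes. Aldh1a3, which makes retinoic acid, read 272, 1383 and 1793 CPM in AP and 10.7, 25.1 and 57.4 CPM in basal libraries (log2 5.37 ± 0.48), and the mitochondrial Aldh2 was lower at -1.68 ± 0.14. The cytochromes P450 held Cyp24a1, which breaks down vitamin D, on the higher side at 5.45 ± 0.66, and Cyp2s1 and Cyp7b1 on the lower side at -5.85 ± 0.31 and -5.13 ± 0.49.

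Transcription factor families also had members on each side. Among 22 ETS factors 5 were higher, with Elf5 above, Ehf at 5.53 ± 0.29 and Ets2 at 1.84 ± 0.12, and 14 lower (9 without the replicate block and 9 with total counts). Of 15 SOX factors 5 were higher and 7 lower: Sox9, a factor of luminal progenitors and many glands, read 569, 1481 and 1781 CPM in AP and 207, 277 and 365 CPM in basal libraries (log2 2.22 ± 0.17), Sox6 was higher at 2.80 ± 0.39, and Sox8 and Sox7 were lower at -2.82 ± 0.38 and -3.29 ± 0.39. Sox10, also a Schwann marker, was higher at 1.20 ± 0.36, and its edgeR adjusted p was 0.0519 without sample 6. Foxi1, a factor of ion-transporting cells in kidney and ear, read 18.3, 67.5 and 78.7 CPM in AP and 0, 1.43 and 5.44 CPM in basal libraries (log2 5.21 ± 0.70). Its AP libraries lay close together but for sample 1, which was the lowest. The forkhead factor Foxc1 was higher at 3.02 ± 0.26 and Foxj1, the factor of motile cilia, lower at -3.19 ± 0.26. Runx1, of the Runt family, was lower at -2.12 ± 0.21. The homeobox gene Irx4 read 0.652, 0.875 and 2.1 CPM in AP and 196, 220.1 and 272 CPM in basal libraries (209.7-fold lower, edgeR adjusted p = 7.02e-11), and Barx2, Dlx5 and Msx2 were higher at 4.86 ± 0.41, 4.71 ± 0.43 and 2.92 ± 0.25. Trp63, the p63 factor of basal epithelia, read 1.32, 2.95 and 4.67 CPM against 303, 439 and 569 CPM. Hey1, a Notch target, was higher at 3.03 ± 0.35, as was the receptor Notch3 at 3.40 ± 0.17, with 45.7% of the span of Notch3 shared. The TEAD factors, partners of YAP, were split between Tead2 (2.22 ± 0.10) and Tead1 and Tead3 (-2.17 ± 0.34 and -1.60 ± 0.20). Of 302 Zfp zinc finger genes 96 were higher and 63 lower, and the 52.6% called in all was near the 55.1% of all genes.

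Regulators of RNA and chromatin differed in both directions. Of 19 epithelial splicing and RNA-binding factors 11 were lower and 4 higher, with Mbnl1 and Qk, which shape muscle splicing, lower at -1.32 ± 0.12 and -1.05 ± 0.11. Of 39 chromatin and DNA methylation factors 12 were higher and 6 lower, and without sample 1 the number lower was 12. The share called, 46.2%, was below the 55.1% of all genes. Dnmt1, the maintenance DNA methyltransferase, and Hdac5 were higher at 1.26 ± 0.14 and 1.48 ± 0.13, and the remodeller subunit Smarca2 was lower at -2.05 ± 0.20. Among 36 apoptosis regulators and p53 targets 10 were higher, close to the 26.7% of all genes, and 14 lower. In all 66.7% were called, with Bik, a killer relative of BCL2, higher at 3.81 ± 0.16. Of 28 histone genes tested 15 were higher and 2 lower, with the linker histone Hist1h1c at 1.38 ± 0.20.

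Ribosomal protein, tRNA synthetase and common reference genes mostly differed by small factors, and their counts depended on the fit. Of 73 cytosolic ribosomal protein genes, with a median of -0.25, 27 were lower, such as Rpl4 at -0.46 ± 0.09. In all 37% were called, below the 55.1% of all genes. With total counts as library size 15 were lower and 4 higher, and without the replicate block 14 were lower. Without sample 5 or 6 the number lower was 16 and 15. Within samples 1 to 3 it was 0, and Rpl4 was not called (edgeR adjusted p = 0.103). Of 70 mitochondrial ribosomal protein genes, with a median of 0.24, 34 were higher, such as Mrpl14 at 1.15 ± 0.13, and 6 lower (1 to 3 without sample 2, 3, 4 or 5); 18 and 1 were called without the block and 45 and 1 with total counts. Aminoacyl-tRNA synthetases were higher in 19 and lower in 2 of 34 (1 lower without sample 3, 4 or 5, without the block, and with total counts), with Vars at 1.28 ± 0.15 and the mitochondrial Lars2 at -1.10 ± 0.15. Cytosolic and mitochondrial ribosomal genes thus had medians of opposite sign in the main fit. Within samples 1 to 3 only 8 mitochondrial ribosomal genes were called higher and 0 lower. Mitochondrially encoded genes differed by more: 12 of 12 were lower, each by an estimated fold of 2 or more, with a median of -1.54. Among them mt-Nd1 was at -1.43 ± 0.20 and mt-Cytb at -1.61 ± 0.25. The list summed to 1442 to 2740.1 CPM in AP and 4076 to 9003 CPM in basal libraries. Immediate early and dissociation genes, which respond to digestion, numbered 10 lower and 2 higher of 21 (6 lower without the block, with total counts, or without sample 2, 3 or 5; 4 higher without sample 1 or within samples 4 to 6, and 1 without the block), with summed levels of 9195 to 18429 CPM in AP and 11120 to 27168 CPM in basal libraries; the part of cell handling in the results was not tested. Of 13 common reference genes, with a median of -0.04, 3 were higher (6 with total counts), 4 lower and 6 not called, near the 55.1% called of all genes. Actb was lower at -0.80 ± 0.10 and Gusb at -1.34 ± 0.09, and Sdha was higher at 0.58 ± 0.08.

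Cell cycle genes were called higher in 8 of 22 cases and lower in 1, in the fit with the replicate block. The 40.9% called was below the 55.1% of all genes. Mcm6, of the replication helicase, was higher at 1.10 ± 0.20 and the mitotic kinase Aurkb at 1.49 ± 0.35, with means of 285 ± 335 CPM in AP and 130.5 ± 151 CPM in basal libraries for Mcm6. In both populations the SD exceeds the mean, and libraries overlapped for both genes. Cyclin E1 (Ccne1) was lower at -2.60 ± 0.46, also with overlapping libraries. Its highest AP library read 36.1 CPM, above the highest basal library at 30.2 CPM. All 3 lost their calls without the block. Without the block edgeR called 0 of the 22 higher, 1 at an unadjusted p under 0.05, and without sample 1, 2, 5 or 6 it called 5, 4, 5 and 5. Without sample 1 the number lower was 2.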

How the data were processed

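RNA was sequenced from sorted cells, and the titles give each library its population and a sample number from 1 to 6. The authors deposited whole-number counts per gene, per the file headers. Per the submitters' processing notes the build was GRCm38; which aligner and counter made the table is not given in the sources used here. GENCODE M21 matched 52489 of 52636 identifiers and was the source of symbols and coordinates; the other 147, with 0.00303 to 0.00677% of counts, were left out. Where a protein-coding gene lies wholly within the span of other genes (1264 genes), 1134 (89.7%) are listed at 0. Partial overlap therefore makes a level uncertain, and an overlap above 10% is given beside the gene.

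The tool was edgeR 4.0.16 (R 4.3.3). After filterByExpr (minimum count 10), counts were scaled with TMM factors and fitted with a robust quasi-likelihood model to all 18 libraries, with the sample number as a block. The common biological coefficient of variation was 0.303. P-values were adjusted by the Benjamini-Hochberg method over all genes, and standard errors were taken as the fold change over the square root of F. A p-value sets a difference against the scatter left after sample number and population are fitted. That scatter is pooled over all 18 libraries, hormone-sensing ones included, with 10 residual degrees of freedom. Deviations of AP and basal libraries of the same number correlated at 0.127 to 0.63, and those of different numbers at -0.328 to 0.14. The AP library of sample 6 correlated at 0.127 with its own basal library and at 0.13 with that of sample 5. The numbers were taken as pairs, with weak evidence for sample 6. Principal components used log2 CPM with a prior count of 2. The fit was tested on simulated data with known changes, 50 genes at each fold. Of changes of 1.5, 2, 4 and 8-fold it called 40, 56, 74 and 94%, and 5.71% of its 140 calls were false. Far fewer genes were changed there than were called in the data, so the simulation does not test the scaling.

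Function lists (25) and families by symbol stem (60) are described by counts and medians alone. The members and lists were chosen with earlier results of these data known. Genes were named by a rule: the 15 largest folds in each direction among called genes with a mean of 50 CPM or more and no overlap, the 10 largest CPM differences in each direction, up to 5 members of a list by adjusted p in the direction with more calls and 3 in the other, up to 2 not called, up to 3 family members in each direction, the sort genes and the markers. Csn1s1, Csn2 and Myl9 fall outside it. Promoters came from RefSeq (GRCm38.p6). Alternatives were no block, only 12 libraries, DESeq2 1.42.0 size factors and test, limma-voom 3.58.1, total counts, no filter, each sample left out, samples 1 to 3 or 4 to 6 only, and no overlapping genes.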

Additional observations from a re-analysis of the deposited data

Results flagged for a closer look

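In 100 sets of 6 libraries (1 population each), the gap from the highest or lowest library to its nearest neighbour was set against the whole range, and 13 sets had a gap above Dixon's 95% critical value. Chance alone flags about 1 in 20. Of these 13, 9 were libraries of sample 1. On the second principal component sample 1 scored 104.5 in AP, where the next score was 4.97, and 88.44 in basal, where the next was 5.66. In AP, sample 1 was highest for Oxtr at 163.7 CPM (next 84.22), Csn1s1 at 16.89 CPM (next 5.232) and Slc2a4 at 2.474 CPM (next 0.9248), and lowest for Foxi1 at 18.27 CPM (next 64.02). In basal cells, sample 1 was lowest for Asb2 at 34.5 CPM (next 71.73) and Fmod at 153.4 CPM (next 429.5), and highest for Csn1s1 at 0.2913 CPM (next 0.07387). Sample 6 was highest in AP for 3 basal genes, Fmod at 2.501 CPM (next 0.9568), Col17a1 at 7.631 CPM (next 3.028) and Adamts1 at 120.4 CPM (next 91.94). Kit in basal cells was highest in sample 3 at 75.56 CPM (next 29.6). Kit, Asb2, Oxtr, Fmod, Col17a1, Adamts1, Slc2a4 and Foxi1 were still called in the same direction without the sample concerned; Csn1s1 did not pass the filter on low counts without sample 1.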

How the results depend on the processing

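The fit without the replicate block called 7356 genes against 9072 with it, and 7297 of these were shared. Leaving out 1 sample number at a time gave 7961 to 9583 calls. Size factors from DESeq2, only the 12 libraries, no filter, DESeq2 and limma-voom called 9131, 9207, 9129, 9714 and 9532. Total counts as library size moved the median of all genes from -0.01 to 0.126 and the share of calls that were higher from 48.5 to 58.5%. Samples 1 to 3 alone called 5460 genes, 2700 higher and 2760 lower, with 488 and 639 list members against 763 and 971, on fewer samples; samples 4 to 6 called 7841. No gene called in both fits changed direction under any of these settings. Of 290 genes examined singly, the loss without the block was 7 and with samples 1 to 3 alone 17, and none reversed. The fit without the block also called 6 against 10 apoptosis genes higher. Of genes in the lowest quartile of levels 36.5% were called, and of those in the highest 65%; the part of depth was not tested.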
